A study of Mus musculus with 10 samples.

Results

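The Cyp3a cytochromes of mouse liver are described here: Cyp3a11, Cyp3a13, Cyp3a16, Cyp3a25, Cyp3a41a, Cyp3a41b, Cyp3a44 and Cyp3a59. They were chosen by gene symbol, and all 8 were found among the 19414 genes of the deposited table. RNA was taken from the livers of 10 female mice of the genotype HET3, an outbred-like stock in which each animal has its own mix of alleles. Of these mice, 5 had received the Longevity diet (LD) and 5 the standard diet (SD) for 5 months, with an age of 25 months given for both. Whether feeding began or ended at that age is not stated, and no genetic change or drug is named for either group. Each library came from a separately numbered mouse, and the labels tell nothing of cage, litter or sequencing batch.

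Cytochromes P450 are haem enzymes of the endoplasmic reticulum that oxidise steroids, bile acids, drugs and food compounds, with electrons passed to them by P450 oxidoreductase. In liver the Cyp3a subfamily is a large part of this machinery, and some of its genes are switched on by the nuclear receptors PXR (Nr1i2) and CAR (Nr1i3), which sense foreign compounds and bile acids. Mouse Cyp3a genes differ by sex and age: Cyp3a41a, Cyp3a41b and Cyp3a44 are known as female-predominant genes that depend on the pattern of growth hormone release, Cyp3a16 is known from fetal and neonatal liver, and Cyp3a11 is the main inducible form of the adult.

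On the Longevity diet Cyp3a41a and Cyp3a41b fell, 3.35-fold and 6.62-fold, and they were the 2 of the 8 members that passed the test. The test was limma on log2(CPM + 0.1), where CPM are counts per M reads (M, 1e+06), with Benjamini-Hochberg adjustment at 0.05 over all 13157 genes that averaged at least 1 CPM. All 8 members passed that filter. Cyp3a44 and Cyp3a16 also had lower means in LD livers and Cyp3a11 had a higher mean, but none of these 3 passed the test. Of all genes tested, 1.89% changed, 1.23% lower and 0.661% higher in LD livers, against 2 lower and 0 higher among the 8 members by limma and by its voom variant. The 2 are near copies that may share reads, so they are not 2 separate results. With near-identical members summed, in a fit added after seeing the data, 1 of 6 rows changed. At an unadjusted p under 0.05 stood 4 members, Cyp3a11 on the higher side and Cyp3a41a, Cyp3a41b and Cyp3a44 on the lower, as did 17.5% of all genes tested. The median log2 difference of the members was -0.66, and over all genes tested it was -0.11. Scaling by median of ratios put the median of all genes at -0.01 and quantile normalization at 0.00, and the signs of Cyp3a11, Cyp3a16, Cyp3a41a, Cyp3a41b and Cyp3a44 were the same under both.

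Cyp3a41a and Cyp3a41b are near copies. Their translated transcripts (GENCODE M21, GRCm38) are identical, and their coding sequences differ at 2 of 1515 bases, both on chromosome 5. These differences are written G120A and G336T from Cyp3a41a to Cyp3a41b, counted from 1 at the first base of the start codon. The stretches around them are shown because, in this reference, only reads that cover one of them can be told apart in the coding sequence. These sequences and the promoter sequences below are of the reference, and the alleles of the HET3 mice were not examined. Capitals mark the differing base, and neither difference changes the protein.
Cyp3a41a at 120: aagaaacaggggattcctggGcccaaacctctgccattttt
Cyp3a41b at 120: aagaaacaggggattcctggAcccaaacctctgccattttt
Cyp3a41a at 336: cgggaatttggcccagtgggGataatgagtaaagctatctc
Cyp3a41b at 336: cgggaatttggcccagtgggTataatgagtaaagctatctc
Over the whole transcripts, 88.4% of the windows of 100 bases of Cyp3a41a occurred in Cyp3a41b, and 9.2% of them occurred in no other member. For Cyp3a41b that share was 11.8%, for Cyp3a25 and Cyp3a59 it was 94.4%, and for Cyp3a11, Cyp3a13, Cyp3a16 and Cyp3a44 it was 97.2% or more. How reads that match several genes were assigned is not given in the sources used here, so the split between Cyp3a41a and Cyp3a41b is uncertain, and their sum is given beside each.

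The 250 bases before the start of the genes, from RefSeq on GRCm38.p6, are shown for 3 genes on the minus strand, 1 that fell (Cyp3a41a, chr5:145720137-145720386), its relative Cyp3a44 (chr5:145805875-145806124) and Cyp3a11 (chr5:145879855-145880104), whose mean was higher. Capitals mark AGTTCA and AGGTCA, the nuclear receptor half-sites, on either strand.
Cyp3a41a: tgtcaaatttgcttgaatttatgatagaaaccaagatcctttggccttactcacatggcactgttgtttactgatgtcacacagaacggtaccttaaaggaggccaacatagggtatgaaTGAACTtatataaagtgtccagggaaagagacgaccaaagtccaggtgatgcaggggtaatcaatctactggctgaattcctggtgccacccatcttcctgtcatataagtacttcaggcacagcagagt
Cyp3a44: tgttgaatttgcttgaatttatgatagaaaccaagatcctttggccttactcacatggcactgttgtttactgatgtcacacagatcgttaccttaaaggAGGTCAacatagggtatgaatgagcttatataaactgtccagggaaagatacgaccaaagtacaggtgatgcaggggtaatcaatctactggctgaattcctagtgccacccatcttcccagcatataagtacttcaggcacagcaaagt
Cyp3a11: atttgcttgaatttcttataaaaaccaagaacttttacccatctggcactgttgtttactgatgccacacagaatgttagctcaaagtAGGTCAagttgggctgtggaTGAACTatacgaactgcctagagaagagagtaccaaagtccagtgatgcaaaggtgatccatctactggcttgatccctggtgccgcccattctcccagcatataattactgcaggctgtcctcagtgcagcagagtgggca
The window of Cyp3a41b differed from that of Cyp3a41a at 1 base, T222G counted from 1 at the 5′ end. The window of Cyp3a44 was 94.4% identical to that of Cyp3a41a over 250 aligned bases, and that of Cyp3a11 was 81.3% identical to it over 235. AGTTCA stood in 3 of the 8 windows, in reverse at -142 in Cyp3a11 and at -130 in Cyp3a41a and Cyp3a41b, and in 11.9% of 27025 mouse promoter windows of that length. AGGTCA stood in 4 of the 8, Cyp3a11, Cyp3a25, Cyp3a44 and Cyp3a59, and in 13.8% of all windows. Neither TTCNNNGAA, the STAT5 motif (7.18% of all windows), nor ATCGAT, a form of the Onecut1 core (0.729%), occurred in these 8 windows, searched on both strands. Other forms of the Onecut1 core were not searched, so whether the windows hold one was not examined. Cyp3a11 thus holds both half-sites, and Cyp3a41a and Cyp3a41b hold AGTTCA without AGGTCA.

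The estimated depth was 24.7 to 39.1 M reads in LD libraries and 36.0 to 45.7 M in SD libraries (exact permutation test, two-sided p = 0.0159, n = 5 each). The member value with the fewest reads behind it, Cyp3a41b in mouse LD_406, rests on about 543 reads, and 3 reads correspond to at most 0.121 CPM. The hepatocyte transcript Alb was at 110504 CPM or more in LD livers and at 62598 CPM or more in SD livers, whereas among intestinal markers Vil1 stayed at 2.48 CPM or less and Alpi was above 0 in 1 SD mouse only. Fabp2, another intestinal marker, was at 73.8 to 201 CPM in LD livers and 69.9 to 102 CPM in SD livers. In whole liver, fewer cells of a type and less RNA per cell cannot be told apart. Values per mouse are given in the order LD_405, LD_406, LD_442, LD_513 and LD_515, and SD_403, SD_500, SD_501, SD_502 and SD_646.

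Cyp3a41a (ENSMUSG00000075551.5, mm39 chr5:145630859-145656946, minus strand) is a female-predominant steroid hydroxylase of mouse liver. It had 674, 254, 605, 1112 and 868 CPM in the 5 LD mice, against 3048, 2252, 2276, 2509 and 1079.8 CPM in the 5 SD mice. In 4 SD mice it stood above all LD mice, and the groups overlapped only because LD_513 lay just above SD_646. The means were 703 ± 319 CPM in LD livers and 2233 ± 720 CPM in SD livers (SD, n = 5 each). The log2 difference was -1.74 (SE 0.37, 95% interval -2.53 to -0.96, limma adjusted p = 0.0298), and the exact permutation test gave p = 0.0159. Leaving out any of 6 mice ended the call: LD_406 (adjusted p = 0.0517), LD_515 (0.0528), SD_403 (0.0893), SD_500 (0.0725), SD_501 (0.0687) and SD_502 (0.0509).

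Cyp3a41b (ENSMUSG00000075552.5, mm39 chr5:145495474-145521540, minus strand) is the near copy. It had 166, 22.0, 57.4, 62.5 and 108 CPM in LD mice, against 677, 539, 464, 640.5 and 168 CPM in SD mice. The groups did not overlap, although the highest LD mouse, LD_405, and the lowest SD mouse, SD_646, lay side by side at 166 and 168 CPM. It was the 1 of 8 members without overlap, and 5.50% of all genes tested had none. The means were 83.3 ± 55.7 CPM in LD livers and 498 ± 203 CPM in SD livers, a log2 difference of -2.73 (SE 0.49, 95% interval -3.79 to -1.66, limma adjusted p = 0.0157). The exact permutation p of 0.00794 is the smallest that 252 assignments of 5 of 10 mice can give. Without SD_403 the adjusted p was 0.0527.

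Summed, the pair had 840 CPM in LD_405, 276 in LD_406, 663 in LD_442, 1174 in LD_513 and 977 in LD_515, against 3725 CPM in SD_403, 2791 in SD_500, 2741 in SD_501, 3149 in SD_502 and 1248 in SD_646. Each LD mouse stood below each SD mouse, with the gap narrow between LD_513 and SD_646. Fitted as 1 row in a fit added after seeing the data, the sum fell by 1.86 on the log2 scale (SE 0.37, limma adjusted p = 0.0260). The share of Cyp3a41b in the sum was 5.32% to 19.8% in LD livers and 13.5% to 20.3% in SD livers, the overlap coming from LD_405 alone.

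**Figure D1:**
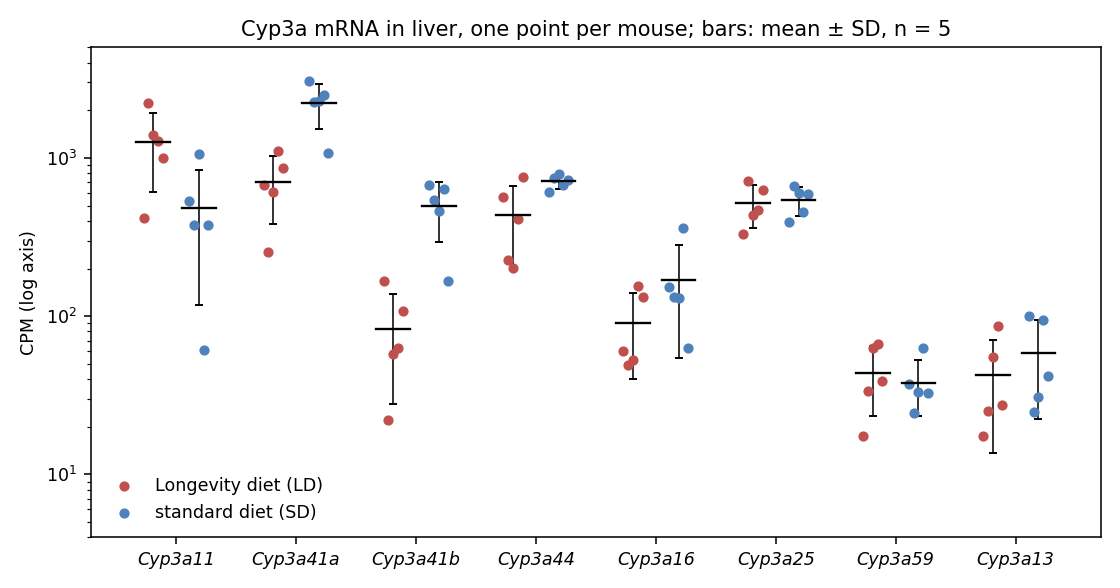
CPM of each of the 8 Cyp3a genes (log axis) in the 5 LD mice (left of each pair) and the 5 SD mice (right), with 1 point per mouse and bars for the mean ± SD. Cyp3a41b is without overlap, Cyp3a41a overlaps by 1 LD mouse, and Cyp3a11 spreads from 61.5 to 1052 CPM within the SD mice.

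Cyp3a44 (ENSMUSG00000054417.6, mm39 chr5:145710793-145742684, minus strand), another female-predominant gene, had 563, 228, 202, 413 and 763 CPM in LD mice, against 611, 749.6, 790.4, 674 and 725 CPM in SD mice. The SD mice lay close together, with a coefficient of variation of 9.79%, and the LD mice were spread widely, with one of 54.3%. LD_515 was above 4 of the SD mice, while the other LD mice were below all of them. The log2 difference was -0.89 (SE 0.32, 95% interval -1.57 to -0.20), which did not pass the test (limma adjusted p = 0.167, exact permutation p = 0.0476).

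Cyp3a16 (ENSMUSG00000038656.6, mm39 chr5:145373119-145406533, minus strand) had 60.0, 49.1, 52.6, 155 and 133 CPM in LD mice, against 153, 132, 130.0, 363 and 63.1 CPM in SD mice. The groups overlapped, with LD_513 and LD_515 among the SD values and SD_502 far above the rest. The log2 difference was -0.85 (SE 0.44, 95% interval -1.78 to 0.09, limma adjusted p = 0.336, exact permutation p = 0.135).

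Cyp3a11 (ENSMUSG00000056035.9, mm39 chr5:145791236-145816774, minus strand) had 419, 2228, 1404, 1285 and 994 CPM in LD mice, against 532, 375, 1052, 61.5 and 379 CPM in SD mice. In 3 LD mice it stood above all SD mice, while LD_405 lay within the SD range and LD_515 just below its top, SD_501. The means were 1266 ± 659 CPM in LD livers and 480 ± 363 CPM in SD livers (SD, n = 5 each). The log2 difference of 1.68 (SE 0.67, 95% interval 0.22 to 3.15) did not pass the test over all genes (limma adjusted p = 0.221, unadjusted 0.0280, exact permutation p = 0.0476). Within the SD group the highest mouse had 17.1 times the lowest, and without SD_502, the lowest, the log2 difference was 1.06.

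Cyp3a25 (ENSMUSG00000029630.16, mm39 chr5:145914004-145946428, minus strand), a form found in adult liver and intestine, had 329.8, 717, 439, 466 and 629 CPM in LD mice, against 395, 662, 602, 456 and 591 CPM in SD mice. The values were intermixed, and the log2 difference of -0.10 (SE 0.23, 95% interval -0.59 to 0.40, limma adjusted p = 0.858) did not pass the test. Its sign turned under 3 of 20 alternative settings.

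Cyp3a59 (ENSMUSG00000061292.11, mm39 chr5:146016067-146050097, plus strand), whose coding sequence is 97.5% identical to that of Cyp3a25, had 17.4, 33.7, 63.0, 66.6 and 38.8 CPM in LD mice, against 37.0, 24.4, 33.3, 62.6 and 32.7 CPM in SD mice. The groups overlapped widely and the sign turned under 3 of 20 alternative settings (log2 difference 0.13, SE 0.35, 95% interval -0.63 to 0.88, limma adjusted p = 0.881).

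Cyp3a13 (ENSMUSG00000029727.8, mm39 chr5:137891194-137919881, minus strand), a form of liver and intestine, had 17.6, 25.0, 54.8, 87.3 and 27.4 CPM in LD mice, against 101, 24.7, 30.9, 94.97 and 42.0 CPM in SD mice. High and low mice occurred on both diets (log2 difference -0.48, SE 0.48, 95% interval -1.51 to 0.55, limma adjusted p = 0.635).

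The summed CPM of the 8 members was 2248, 3556, 2877, 3647 and 3561 in LD mice, against 5553, 4759, 5380, 4862 and 3081 in SD mice. In 4 SD mice the sum was above that of all LD mice, and SD_646 lay among the LD values. Within the sum, Cyp3a41a and Cyp3a41b together made up 37.4%, 7.76%, 23.0%, 32.2% and 27.4% in LD livers, against 67.1%, 58.7%, 50.9%, 64.8% and 40.5% in SD livers, with no overlap between the diets. Cyp3a11 made up 18.6%, 62.6%, 48.8%, 35.2% and 27.9% in LD livers, against 9.59%, 7.88%, 19.6%, 1.26% and 12.3% in SD livers, where only LD_405 fell within the SD range. The ratio of Cyp3a11 to the summed pair was 0.499 to 8.08 in LD mice and 0.0195 to 0.384 in SD mice, so that each LD mouse was above each SD mouse. This ratio sets a member with a higher mean in LD livers over the pair that fell, in the same values. Its separation therefore adds no support to the differences of the single genes. Cyp3a11 by itself overlapped between the diets and did not pass the test. The shares add to a whole, so a lower share of one member raises the others without any change in their CPM.

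**Figure D2:**
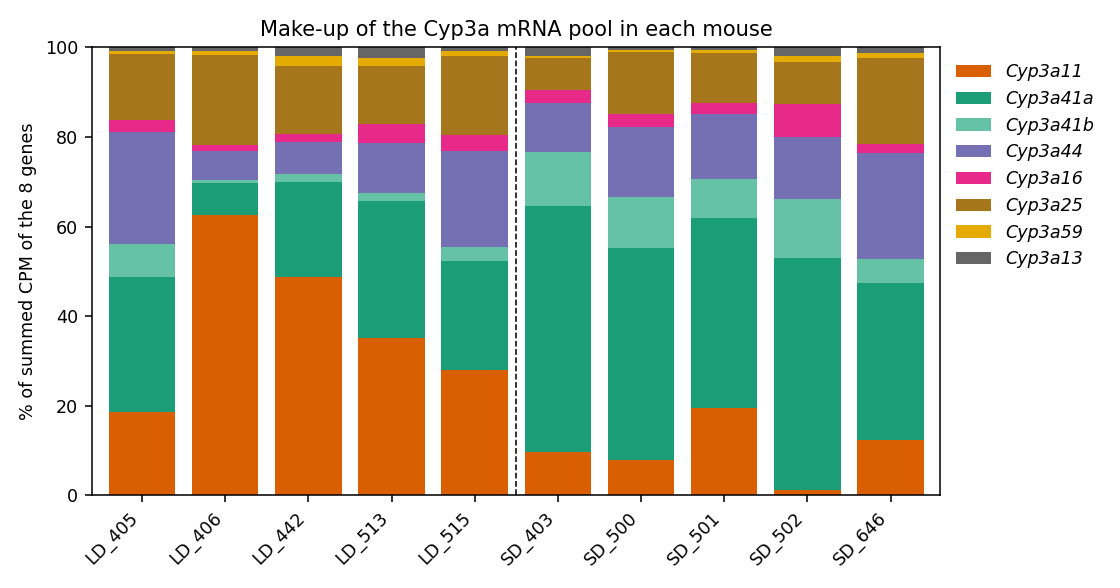
Percent of the summed Cyp3a CPM taken by each gene, as stacked bars, in each LD mouse (left) and each SD mouse (right). Cyp3a41a and Cyp3a41b together take 7.76% to 37.4% in LD mice and 40.5% to 67.1% in SD mice.

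Divided by transcript length, levels can be set side by side between genes. In LD livers the order of mean CPM per kb was Cyp3a11 (540.1 ± 281), Cyp3a41a (341 ± 155), Cyp3a25 (258 ± 77.6), Cyp3a44 (221 ± 120.0), Cyp3a16 (52.0 ± 28.9), Cyp3a41b (40.4 ± 27.0), Cyp3a59 (22.1 ± 10.4) and Cyp3a13 (14.3 ± 9.73). Neighbours in this order lay within each other's spread between mice, apart from the step between Cyp3a44 and Cyp3a16. Compared within each LD mouse, however, Cyp3a59 was above Cyp3a13 every time, by the least in LD_513 (33.5 against 29.5 CPM per kb). In SD livers Cyp3a41a led with 1084 ± 349 CPM per kb, followed by Cyp3a44 (362 ± 35.4), Cyp3a25 (270.5 ± 55.6), Cyp3a41b (241 ± 98.1), Cyp3a11 (205 ± 155), Cyp3a16 (97.2 ± 65.9), Cyp3a13 (19.9 ± 12.3) and Cyp3a59 (19.1 ± 7.29). Here Cyp3a41a stood clear of Cyp3a44. Cyp3a16 was also above Cyp3a13 without overlap, at 36.5 to 209.8 CPM per kb in single SD mice against 8.36 to 34.1. The other neighbours lay within or at the edge of each other's spread between mice. Compared within each SD mouse, Cyp3a44 was above Cyp3a25 every time, as with 382 against 331 CPM per kb in SD_500.

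Apart from Cyp3a13, which lies 7.45 Mb away, the members occupy 677 kb of chromosome 5. Along that stretch the order of the members is Cyp3a16, Cyp3a41b, Cyp3a41a, Cyp3a44, Cyp3a11, Cyp3a25 and Cyp3a59, so the pair that passed the test lies between Cyp3a16 and Cyp3a44, which did not. Of 43 genes outside the Cyp3a family within 300 kb of a member, Cyp3a13 included, 35 were tested. Among these 0 changed by limma or by its voom variant, beside 1.89% of all genes tested by limma. At an unadjusted p under 0.05 stood 1, beside 17.5% of all genes tested. It was Pcolce, a collagen-processing enhancer (log2 difference -0.72), which lies near Cyp3a13 and not near the cluster. Most of the 43 genes, from Mospd3 to Mblac1, likewise lie around Cyp3a13.

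**Figure D3:**
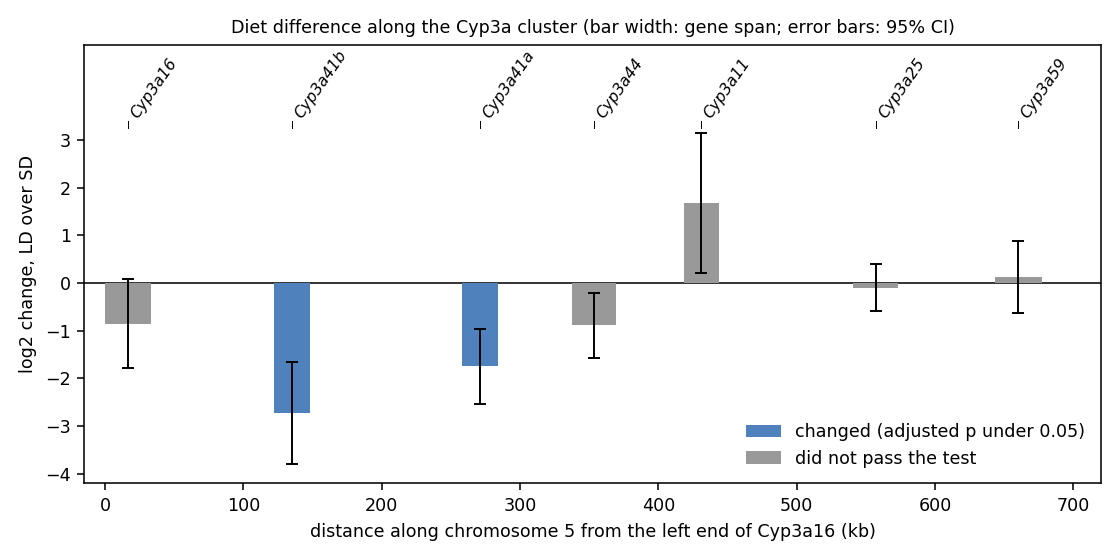
Log2 difference (LD over SD, with 95% interval) of the 7 clustered Cyp3a genes as bars as wide as each gene, against distance along chromosome 5 in kb. Cyp3a41b (-2.73) and Cyp3a41a (-1.74) lie between Cyp3a16 (-0.85) and Cyp3a44 (-0.89), and Cyp3a11 (1.68) follows.

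None of 20 tested transcription factors and cofactors that act on Cyp3a genes changed (0 by limma and 0 by voom). That is near the 1.89% of all genes tested that changed by limma. At an unadjusted p under 0.05 stood 1, beside 17.5% of all genes tested, and the median log2 difference was 0.18. The 1 was Nr1i2, the receptor PXR, with 74.7, 87.8, 71.4, 104.9 and 71.3 CPM in LD mice, against 52.1, 45.6, 50.2, 43.1 and 60.8 CPM in SD mice. Its groups did not overlap, as was so for 5.50% of all genes tested, and its log2 difference of 0.70 had a limma adjusted p of 0.0630. Nr1i3, the receptor CAR, averaged 398 ± 55.2 CPM in LD livers and 302 ± 130.3 CPM in SD livers (adjusted p = 0.368), and Hnf4a, a hepatocyte factor, averaged 405.5 ± 108 CPM in LD livers and 346 ± 123 CPM in SD livers (adjusted p = 0.618). Both overlapped between the diets.

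Over all genes tested, 1.89% changed by limma and 17.5% had an unadjusted p under 0.05. Among 6 genes of electron transfer to P450 enzymes, 0 changed by limma or voom and 1 had an unadjusted p under 0.05. This was Por, P450 oxidoreductase, at 744 ± 217 CPM in LD livers and 344 ± 105 CPM in SD livers (log2 difference 1.11, limma adjusted p = 0.0630). Among 12 genes of haem turnover 0 changed by limma or voom and 5 had an unadjusted p under 0.05 (17.5% of all genes tested had one), led by Alas1, the first enzyme of haem synthesis, at 414 ± 198 CPM in LD livers and 145 ± 88.0 CPM in SD livers (log2 difference 1.51, adjusted p = 0.105).

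Of 25 known targets of PXR and CAR outside the family, 2 rose and 2 fell, beside 0.661% of all genes tested higher and 1.23% lower. An unadjusted p under 0.05 was found for 8, beside 17.5% of all genes tested, and the median log2 difference was 0.09. Cyp2b10, the classical CAR target, had 18.8, 12.5, 6.83, 7.09 and 5.00 CPM in LD mice, against 62.0, 54.5, 52.8, 47.0 and 42.4 CPM in SD mice, and it fell (log2 difference -2.50, limma adjusted p = 0.00283). Papss2, which makes the sulfate donor, also fell (log2 difference -0.96, adjusted p = 0.0318). Ephx1, a microsomal epoxide hydrolase, rose (log2 difference 0.99, adjusted p = 0.0164), as did Gadd45b, a stress gene (1.74, adjusted p = 0.0371). The list thus held changes in both directions.

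Genes known for growth hormone signalling held 1 change in 9, beside 1.89% of all genes tested. An unadjusted p under 0.05 was found for 4 of them, beside 17.5% of all genes tested. Negative log2 differences were found for 8 of the 9, beside 7952 of all 13157 genes tested. Ghr, the growth hormone receptor, had 159, 225, 232, 215 and 283 CPM in LD mice, against 407, 439.8, 346, 505 and 459 CPM in SD mice, and it fell (log2 difference -0.97, limma adjusted p = 0.0178). Igf1, its main hepatic target, averaged 376 ± 41.2 CPM in LD livers and 578 ± 75.5 CPM in SD livers without passing the test (adjusted p = 0.0634). The median log2 difference of the 9 was -0.54, beside -0.11 over all genes tested.

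Of 20 tested female-biased genes outside the family, 2 rose and 1 fell, with a median log2 difference of -0.16, and voom gave 2 higher and 2 lower. An unadjusted p under 0.05 was found for 10. Over all genes tested, 0.661% rose, 1.23% fell and 17.5% had an unadjusted p under 0.05. Cyp2a4, a steroid hydroxylase, had 2937 ± 459.9 CPM in LD livers and 1321 ± 338 CPM in SD livers (log2 difference 1.17, limma adjusted p = 0.0117), and its relative Cyp2a22 also rose (log2 difference 1.71, adjusted p = 0.0352). Ntrk2, a neurotrophin receptor, fell (log2 difference -5.76, limma adjusted p = 0.00360), with LD values of 0.243 to 7.25 CPM and SD values of 58.5 to 112 CPM. Hamp2 did not pass the test (log2 difference -6.90, limma adjusted p = 0.0649). It was at 0.423 to 309 CPM in LD livers and 722 to 6212 CPM in SD livers. Of the 20 female-biased genes, 9 had positive and 11 had negative log2 differences. Of 12 tested male-biased genes 2 rose and 3 fell, with a median of -0.54, whereas voom gave 1 higher and 1 lower. An unadjusted p under 0.05 was found for 8 of the 12. Cyp2d9, a male-predominant steroid hydroxylase, rose (log2 difference 2.06, adjusted p = 0.0259). Selenbp2, Sult5a1 and Mup1 fell, with log2 differences of -2.63, -4.94 and -6.28 and limma adjusted p-values of 0.0309, 0.00360 and 0.00160. Mup1 belongs to a family of near-identical genes that reads may not separate. In LD livers Sult5a1 (0 to 0.868 CPM) and Mup1 (0.0660 to 0.540 CPM) were near the pseudocount of 0.1 CPM, so the size of these 2 differences depends on it. In SD livers Sult5a1 was at 5.08 to 48.5 CPM, highest in SD_403, and Mup1 at 5.02 to 101 CPM. Both lists held changes in each direction.

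**Figure D4:**
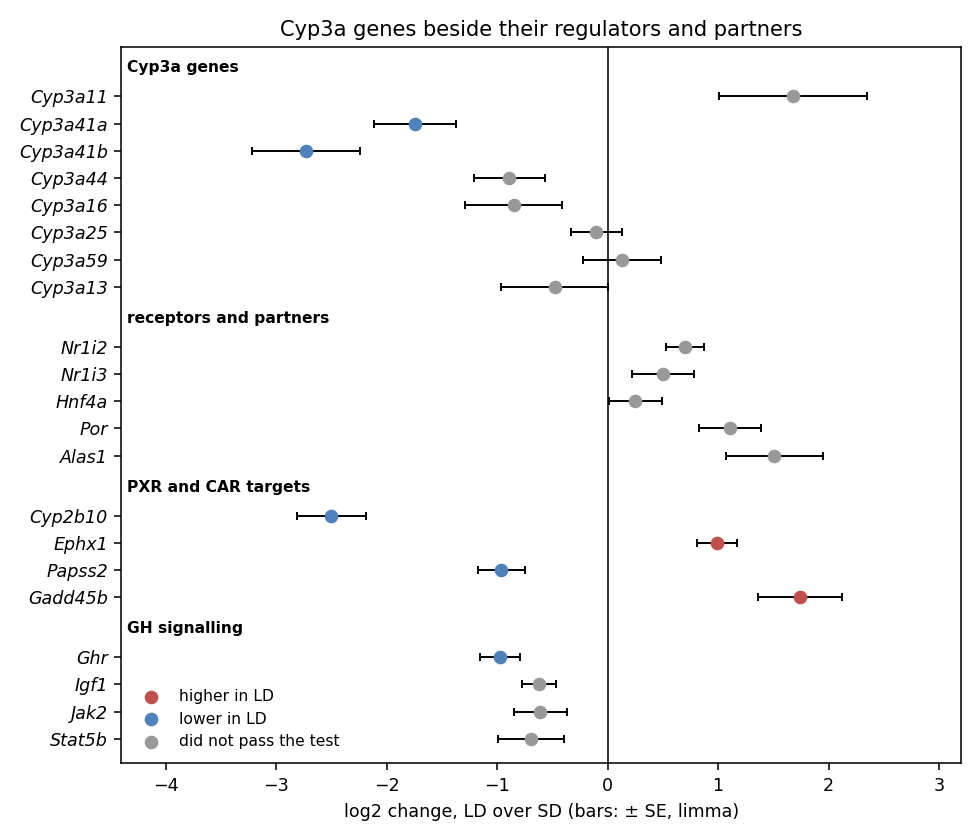
Log2 difference (LD over SD, bars ± SE from limma) of the 8 Cyp3a genes, then of receptors and partners, PXR and CAR targets and growth hormone (GH) signalling genes. Coloured points passed the test, red higher and blue lower in LD livers, and grey points did not.

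Markers of other cell types and acute phase genes were set beside the Cyp3a values. Summed CPM of 10 endothelial markers was 129 to 289 in LD livers and 305 to 435 in SD livers, without overlap. For 10 stellate cell markers it was 329 to 614 in LD livers and 527 to 794 in SD livers, and for 12 Kupffer cell markers 272 to 899 in LD livers and 514 to 868 in SD livers. For 10 lymphocyte markers it was 8.80 to 34.6 in LD livers and 18.9 to 104 in SD livers, and for the neutrophil markers 1.86 to 6.19 in LD livers and 5.13 to 80.3 in SD livers. The cholangiocyte sum was 27.5 to 47.8 in LD livers and 27.2 to 59.3 in SD livers, and the enterocyte sum, mostly Fabp2 and Cdhr5, 150.3 to 313 in LD livers and 136 to 193 in SD livers. Of the tested markers, 0 of 10 endothelial, 1 of 10 stellate (Pdgfrb, lower), 0 of 12 Kupffer, 0 of 10 lymphocyte, 1 of 3 neutrophil (S100a8, lower) and 0 of 4 cholangiocyte genes changed, and by voom the counts were 0, 1, 0, 0, 0 and 0. At an unadjusted p under 0.05 stood 7, 8, 1, 4, 2 and 1 of them, beside 17.5% of all genes tested. The median log2 differences were -0.78, -0.81, -0.53, -0.99, -2.64 and 0.01 in the same order. Hepatocyte markers summed to 143703 to 197169 CPM in LD livers and 98278 to 145217 CPM in SD livers. Most of that sum was Alb, at 124794 ± 20701 CPM in LD livers and 79126 ± 19773 CPM in SD livers. Of the 11 hepatocyte markers tested, 1 changed (Cps1, of the urea cycle, lower), beside 1.89% of all genes tested. Negative log2 differences were found for 7 of the 11, beside 7952 of all 13157 genes tested, and the median of the 11 was -0.01. Of 19 acute phase genes, 5 fell by limma and 4 by voom, beside 1.23% of all genes tested by limma. Orm1, Orm2, Orm3 and Lcn2 were among the 5. An unadjusted p under 0.05 was found for 10, beside 17.5% of all genes tested. The sum of the 19 was 18924 to 25289 CPM in LD livers and 22570 to 33313 CPM in SD livers. Of the list entries found in the table, 11 of 12 for hepatocytes, 6 of 7 for cholangiocytes, 5 of 8 for enterocytes and all of the other lists, none was at 0 in all mice. The part of cell makeup, of the acute phase state and of depth in the Cyp3a values was not tested.

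By profile over the 10 mice, the nearest named protein-coding gene outside the family was taken among 11588, as the smallest root mean square difference of z-scored log2 values. For Cyp3a41b it was Mup2 (0.331) and for Cyp3a41a P2ry12 (0.331), a gene at 0.693 ± 0.432 CPM in LD livers and 1.77 ± 0.575 CPM in SD livers. Cyp3a44 lay nearest to Bhmt, a methyltransferase of methionine metabolism (0.405), Cyp3a11 to Nsmce4a (0.333), Cyp3a16 to Sspo (0.378), Cyp3a25 to Mtx2 (0.355), Cyp3a13 to Atxn2l (0.265) and Cyp3a59 to Rybp (0.244). Within the family Cyp3a41a and Cyp3a41b, which may share reads, were nearest to each other (0.343), and Cyp3a11 and Cyp3a41b stood at 1.757. No background was computed for the smallest of 11588 distances over 10 mice, so nearness here is description only.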

How the data were processed

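Poly-A selected RNA of 10 livers was sequenced. Per the submitters' processing notes STAR, Partek and the mm39 genome were used, while versions, quantifier, annotation release, strandedness and the handling of reads matching several genes are not given in the sources used here. The deposited values are CPM to which the authors added 0.0001, which was subtracted. The step between low values gave each library's depth, with 84.5% to 87.8% of low values within 0.1 of a whole read, so the values were not treated as counts. Mice were grouped by title, and no mouse number occurs on both diets. The diets were compared with limma 3.58.1 (R 4.3.3, trend, robust empirical Bayes with statmod 1.5.0) on log2(CPM + 0.1) for 13157 genes averaging at least 1 CPM, two-sided, with Benjamini-Hochberg adjustment at 0.05; only then is a gene said to have risen or fallen. Single genes were also tested by an exact two-sided permutation of 252 assignments. Fold changes are on the log2(CPM + 0.1) scale, LD over SD. Errors are SD over 5 mice unless named SE. The approach was tested on simulated data.

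Members and gene lists were chosen with earlier results of these data known. Named are all members, up to 4 genes with the smallest p of each list described, Nr1i2, Nr1i3, Por and Hnf4a, the nearest profiles, and neighbours that changed; Pcolce was named after its value was seen. Gene positions on mm39 come from the deposited table, whose ends were lowered by 1. Transcripts are from GENCODE M21 and promoters from RefSeq on GRCm38.p6, all 8 members matching in both. Sequences were aligned with Biopython 1.88. Floors in reads cover counting error only. Alternatives were other pseudocounts (1 and 0.01 CPM), filters (none and 5 CPM), scalings, library weights, the leading digit of the mouse number as covariate, voom and leaving out each mouse.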

Additional observations from a re-analysis of the deposited data

How the results depend on the processing

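Cyp3a41a and Cyp3a41b kept their lower values in all 20 alternatives, past the threshold in 14 and 19 of them, with log2 differences of -1.99 to -1.42 and -3.08 to -2.32. Cyp3a11 (1.06 to 2.08), Cyp3a16 (-1.14 to -0.51) and Cyp3a44 (-1.14 to -0.64) kept their sign in 21 alternatives and passed in 0. The count of changed members was 2, and 0 (without SD_403) to 2 with each mouse left out in turn. Summing rows with proteins at least 95% identical, added after seeing the data with GENCODE translations, gave 1 changed row of 6, the summed Cyp3a41 pair; the planned version with RefSeq proteins was not run. Genes changed numbered 249 of all tested, 805 with library weights, 98 with the leading digit of the mouse number, and 87 (without LD_406) to 380 (without LD_405) with mice left out; the causes were not tested. Against 87 higher and 162 lower, median-of-ratios scaling gave 151 and 138, and quantile normalization 151 and 148. Signs turned for Cyp3a25 under median-of-ratios scaling (0.0088) and the leading digit (0.057), and for Cyp3a13 under library weights (0.14). With each mouse left out Cyp3a25 ranged from -0.227 to 0.0528 and Cyp3a59 from -0.0613 to 0.42. No mouse number is shared, so no paired analysis was possible because nothing in the labels pairs the mice. The fewest reads behind a member's value were about 543, so counting error is small beside the spread between mice. That value is of Cyp3a41b, and the uncertain split of reads between it and Cyp3a41a is not covered by this.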

Other observations

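The table holds 2 further Cyp3a rows outside the 8 members. Cyp3a57 averaged 0.260 ± 0.228 CPM in LD livers and 0.123 ± 0.117 CPM in SD livers, under the filter. The pseudogene Cyp3a63-ps averaged 2.78 ± 1.32 CPM in LD livers and 5.06 ± 2.56 CPM in SD livers (log2 difference -0.81, limma adjusted p = 0.388). Of 57 tested P450 genes of other subfamilies, 5 rose and 2 fell, beside 0.661% of all genes tested higher and 1.23% lower. An unadjusted p under 0.05 was found for 23 (17.5% of all genes tested), and 11 had no overlap between the diets (5.50%). Their median log2 difference was -0.02, and 0.08 with median-of-ratios scaling. Cyp39a1, an oxysterol hydroxylase of bile acid synthesis, was among those that rose, with 85.8 ± 34.7 CPM in LD livers and 17.0 ± 6.72 CPM in SD livers (log2 difference 2.29, limma adjusted p = 0.00605).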
